A study of Mus musculus with 70 samples.

Results

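The genes described here are 10 genes of lung macrophages, chosen by name as genes of alveolar and lipid-handling macrophages: Marco, Siglecf, Itgax, Mrc1, Cd68, Ear2, Ctsk, Atp6v0d2, Trem2 and Gpnmb. They were chosen with earlier results of these data known. The count table used here holds 50789 gene identifiers and 9 of the 10 genes. Marco lies on chromosome 1, from which the table used here holds 0 rows, and it is not analysed here. All 9 others passed the filter on low counts.

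The study sequenced RNA from mice lacking one isoform of Capicua, a DNA-binding transcriptional repressor encoded by Cic. Cic-S-KO mice lack the short isoform, Cic-L-KO mice lack the long isoform, and WT mice are littermates of both lines that the labels pool without naming the line. Lung was taken at postnatal day 6 from 8 samples of each genotype, and no treatment is named. Cortex and cerebellum came from animals of 12 weeks, with 8 samples of each genotype except 7 in Cic-S-KO. The labels number the samples without naming animals, so p-values measure the spread between these samples. How the alleles were made and whether each line goes back to 1 founder are not given in the sources used here.

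The 24 lung libraries held between 17798655 and 35523037 counted reads and all carried 1 batch label. Lung identity was clear in each: the surfactant gene Sftpc averaged 13888 CPM (CPM is a count scaled to its library's total, with the totals normalised by the trimmed mean of M values) in WT, and the neuronal gene Snap25 averaged at most 0.461 CPM in any genotype. Replicates 1 to 4 of every genotype held Y-linked RNA (244 to 298 CPM summed) and replicates 5 to 8 held at most 0.143 CPM, so this property was balanced over genotypes. Counts of Cic sum its isoforms and therefore check no label. Cic averaged 139 CPM among WT lungs, 172 CPM among Cic-S-KO lungs and 135 CPM among Cic-L-KO lungs.

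Alveolar macrophages live on the air side of the alveolus, settle there around birth under the cytokine GM-CSF, and clear surfactant lipid and inhaled particles. They carry the lectin SIGLEC-F (Siglecf), the integrin subunit CD11c (Itgax), the mannose receptor (Mrc1) and the scavenger receptor MARCO. Macrophages loaded with lipid or debris raise lysosomal and lipid-sensing genes such as Gpnmb and Trem2, and Ctsk and Atp6v0d2 are best known from osteoclasts, the bone-resorbing relatives of macrophages.

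Levels of the 9 genes in WT lung were ordered per kilobase of annotated exon. Ear2, a ribonuclease gene of the eosinophil-associated family, stood highest at 31.3 ± 6.61 CPM per kilobase (SD, n = 8). Ctsk followed at 14.8 ± 1.67, Cd68 at 9.92 ± 2.46 and Mrc1 at 8.25 ± 0.568 CPM per kilobase. Next came Atp6v0d2 at 5.37 ± 1.22 and Itgax at 3.34 ± 0.918 CPM per kilobase. The lowest were Gpnmb at 1.38 ± 1.25, Siglecf at 1.27 ± 0.216 and Trem2 at 0.545 ± 0.254 CPM per kilobase. The WT samples of each neighbouring pair in this order overlapped, with the exception of Ear2 and Ctsk. The Ear2 level is uncertain, because 41.5% of the 50-base windows of its transcripts also occur in other genes. Its transcript was 96.8% identical to that of Ear1 and 94.7% identical to that of Ear10. Itgax shared 8.02% of such windows with Itgad, whose mean was at most 0.131 CPM in any lung genotype, and the other members shared at most 0.206%.

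The first comparison asked how lung without the short isoform differed from WT lung. The macrophage genes were higher in Cic-S-KO lung: 7 of 9 passed the threshold (adjusted p under 0.05, edgeR quasi-likelihood test), all of them upward. Of all 16695 genes tested, 15.7% were called in that comparison, 9.99% higher and 5.73% lower. The increases ran from 1.63-fold for Mrc1 to 5.49-fold for Gpnmb. The median log2 fold change was 1.01 over the 9 genes and -0.0010 over all genes tested. Siglecf and Ear2 had positive log2 fold changes that did not pass. In whole lung, more cells of a type and more RNA per cell cannot be told apart.

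Since several members moved together, their promoters were read from RefSeq (GRCm38.p6, from 250 bases before to 50 after the start). An entry was found for 8 of the 9 genes. The heptamer TGANTCA is the same on both strands and is a loose pattern that contains the AP-1 sites TGACTCA and TGAGTCA. It occurred in 4 of these 8 promoters and in 7.81% of 32851 promoters of the same length. The Trem2 match, TGAATCA, is neither of those sites, and the share of all promoters with those sites alone was not counted. The sequences around each match are shown so that a reader can see the letters shared by Gpnmb, Itgax, Cd68 and Trem2. These 4 rose in Cic-S-KO lung, but so did Mrc1 and Ctsk, whose promoters hold no match. Those of Siglecf and Ear2 hold none either. Capitals mark the heptamer, each sequence is written 5′ to 3′ on the strand of its gene, and Cd68 holds 2 matches. They lie at chr6:49036489-49036537 (plus strand) for Gpnmb, chr7:128129457-128129537 (plus) for Itgax, chr11:69666276-69666356 and chr11:69666151-69666231 (minus) for Cd68, and chr17:48346355-48346420 (plus) for Trem2.
Gpnmb: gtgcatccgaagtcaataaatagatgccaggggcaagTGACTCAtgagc
Itgax: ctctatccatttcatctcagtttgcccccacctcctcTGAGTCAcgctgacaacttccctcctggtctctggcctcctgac
Cd68, upstream match: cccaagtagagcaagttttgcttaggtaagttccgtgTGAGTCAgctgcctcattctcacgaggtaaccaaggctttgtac
Cd68, match near the start: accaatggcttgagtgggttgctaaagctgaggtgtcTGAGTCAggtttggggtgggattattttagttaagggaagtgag
Trem2: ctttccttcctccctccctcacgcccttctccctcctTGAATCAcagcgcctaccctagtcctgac

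The other motifs searched on both strands were rarer among the members. The Capicua octamers TGAATGAA and TGAATGGA occurred in 0 of the 8 promoters and in 1.3% and 1.21% of all promoters. The lysosomal E-box TCACGTG occurred in 0 of 8 and in 3.77% of all promoters, the M-box TCATGTG in 1 of 8 (Siglecf) and in 3.77%, and the PU.1-type site GAGGAAGT in 0 of 8 and in 3.2%. A match is a run of letters and not a measured binding site, and the absence of one says only that these letters are not in this window.

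Among the surface receptors, Mrc1 (ENSMUSG00000026712.3, chromosome 2, 14229392 to 14332057 on the plus strand, GRCm38) changed with the least spread. It ranged from 47.2 to 57.9 CPM in WT lung (median 53.3), from 68.1 to 121.9 CPM in Cic-S-KO (median 79.6) and from 53.8 to 71.2 CPM in Cic-L-KO (median 62.7). All 8 Cic-S-KO samples lay above all 8 WT samples, and so did 7 of the 8 Cic-L-KO samples. How many of all tested genes separate in this way was not counted. The Mrc1 log2 fold change in Cic-S-KO was 0.70 (SE 0.0874, adjusted p = 1.88e-05, edgeR). Itgax (ENSMUSG00000030789.9, chromosome 7, 128129547 to 128150657, plus strand) ranged from 12.8 to 24.3 CPM in WT (median 14.1), from 17.3 to 54.2 CPM in Cic-S-KO (median 26.7) and from 14.2 to 28.6 CPM for Cic-L-KO (median 18.5). The Cic-S-KO and WT samples overlapped, with 6 Cic-S-KO samples above all WT samples. Its log2 fold change in Cic-S-KO was 0.86 (SE 0.198, adjusted p = 0.00524, edgeR).

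Siglecf (ENSMUSG00000039013.16, chromosome 7, 43351341 to 43359531, plus strand), the receptor used to tell alveolar from interstitial macrophages, behaved less uniformly. It ranged from 2.55 to 4.15 CPM in WT (median 3.71), from 2.53 to 6.67 CPM in Cic-S-KO (median 4.65) and from 2.62 to 5.25 CPM for Cic-L-KO (median 3.41). In Cic-S-KO, 6 samples lay above all WT samples and 1 lay below them all. The log2 fold change of 0.40 (95% interval 0.066 to 0.73) had an adjusted p of 0.1065 (edgeR). Without Cic-S-KO replicate 8, the lowest sample, it was 0.48 with an adjusted p of 0.0356 (edgeR). Siglecf passed in 1 of 34 alternatives, and this was the one. In replicates 5 to 8 alone the log2 fold change was 0.24 (adjusted p = 0.679, edgeR).

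Among the lysosomal members, Cd68 and Ctsk separated Cic-S-KO from WT completely, as Mrc1 did, and Atp6v0d2 did so in 7 of 8 samples. The share of all tested genes that separate so was not counted, so this describes the members only. Cd68 (ENSMUSG00000018774.13, chromosome 11, 69664213 to 69666153, minus strand), which encodes a lysosomal membrane glycoprotein, ranged from 10.01 to 17.8 CPM in WT (median 10.98), from 18.5 to 49.6 CPM in Cic-S-KO (median 24.1) and from 14.1 to 18.8 CPM for Cic-L-KO (median 15.6). Every Cic-S-KO sample exceeded every WT sample. The log2 fold change in Cic-S-KO was 1.09 (SE 0.165, adjusted p = 0.000131, edgeR). Ctsk (ENSMUSG00000028111.4, chromosome 3, 95499256 to 95509362, plus strand) encodes cathepsin K, a collagen-degrading protease. It ranged from 18.7 to 25.5 CPM in WT (median 22.6), from 40.8 to 108.8 CPM in Cic-S-KO (median 48.7) and from 20.3 to 43.9 CPM for Cic-L-KO (median 22.5). The Cic-S-KO and WT groups did not overlap, and 2 of 8 Cic-L-KO samples lay above all WT samples. The Cic-S-KO log2 fold change was 1.32 (SE 0.189, adjusted p = 0.000105, edgeR).

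Atp6v0d2 (ENSMUSG00000028238.6, chromosome 4, 19876841 to 19922605, minus strand) encodes a membrane-domain subunit of the proton pump that acidifies lysosomes. It ranged from 10.8 to 20.3 CPM in WT (median 13.8), from 16.3 to 55.5 CPM in Cic-S-KO (median 27.6) and from 10.004 to 19.01 CPM for Cic-L-KO (median 14.6). Only Cic-S-KO replicate 8 lay within the WT range, and the other 7 Cic-S-KO samples lay above it. The log2 fold change in Cic-S-KO was 1.01 (SE 0.197, adjusted p = 0.00148, edgeR).

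The lipid-associated members had the largest increases and the widest spread. Trem2 (ENSMUSG00000023992.14, chromosome 17, 48346401 to 48354147, plus strand), a lipid-sensing receptor that signals through TYROBP, ranged from 1.77 to 5.41 CPM in WT (median 2.02), from 4.44 to 18.1 CPM in Cic-S-KO (median 7.37) and from 2.10 to 5.05 CPM for Cic-L-KO (median 3.07). Of the 8 Cic-S-KO samples, 6 lay above the highest WT sample. The log2 fold change was 1.67 (SE 0.283, adjusted p = 0.000364, edgeR). Gpnmb (ENSMUSG00000029816.10, chromosome 6, 49036546 to 49070929, plus strand), a glycoprotein of lysosome-related organelles, ranged from 3.55 to 27.2 CPM in WT (median 4.95), from 10.4 to 175.8 CPM in Cic-S-KO (median 31.8) and from 3.24 to 41.3 CPM for Cic-L-KO (median 10.1). WT replicate 7 was high enough to overlap with 2 Cic-S-KO samples, while the other 6 Cic-S-KO samples lay above it. The log2 fold change was 2.46 (SE 0.619, adjusted p = 0.0103, edgeR).

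Ear2 (ENSMUSG00000072596.4, chromosome 14, 44102654 to 44103534, plus strand) ranged from 17.3 to 29.9 CPM in WT (median 20.9), from 15.9 to 39.9 CPM in Cic-S-KO (median 32.3) and from 20.3 to 37.1 CPM for Cic-L-KO (median 27.4). In Cic-S-KO, 5 samples lay above all WT samples and 1 lay below them. The log2 fold change of 0.45 (SE 0.160) had an adjusted p of 0.0583 (edgeR). DESeq2 gave 0.44 with an adjusted p of 0.0242, and the gene passed in 8 of 34 alternatives, among them the non-robust edgeR fit and the fits without WT replicate 3 or 7 or Cic-S-KO replicate 5 or 8.

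**Figure D1:**
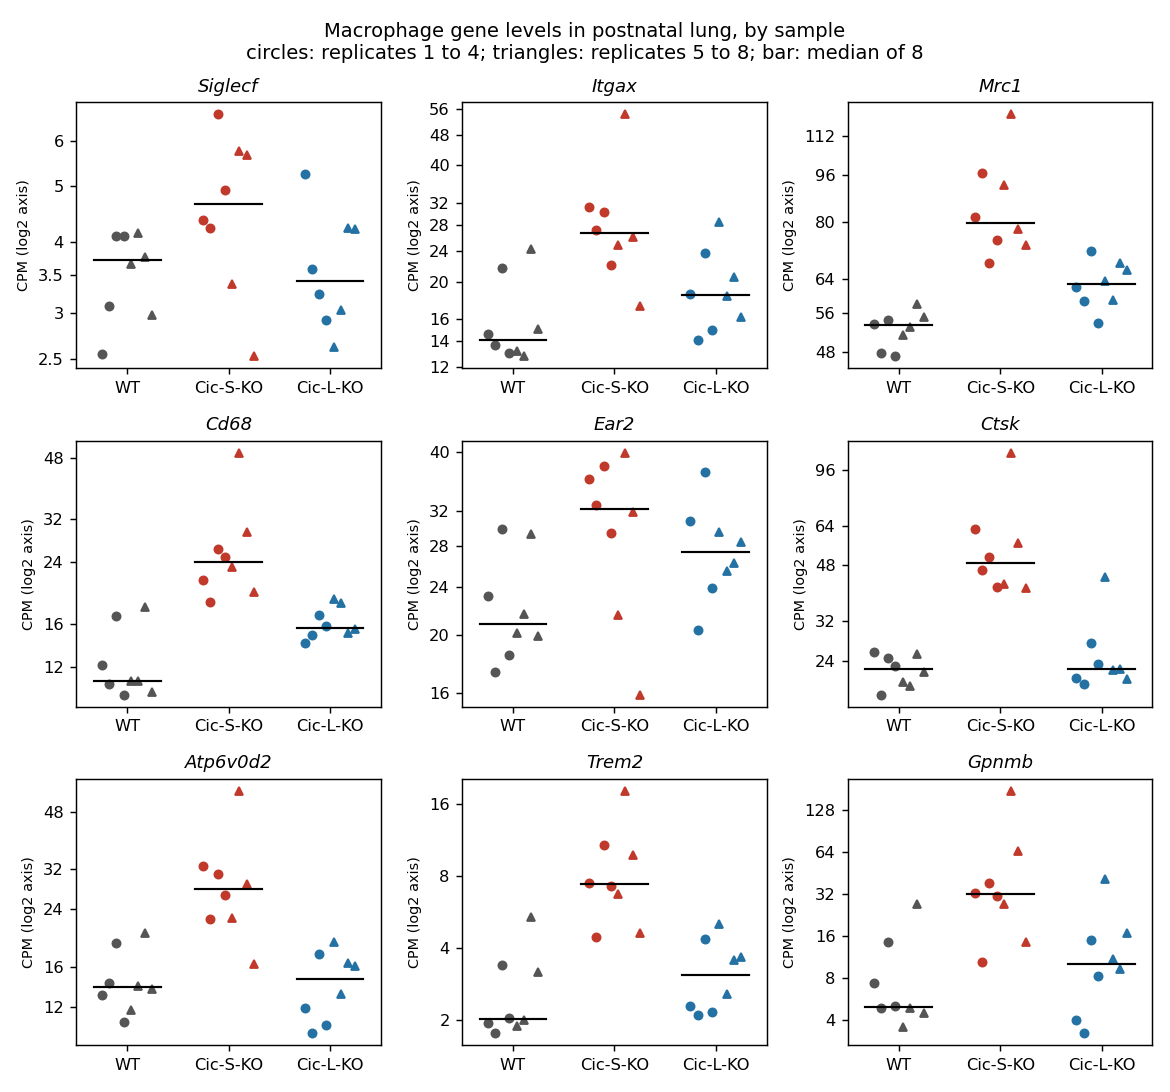
Level of each of the 9 macrophage genes in every lung sample, in CPM on a log2 axis, for WT, Cic-S-KO and Cic-L-KO (8 samples each; circles are replicates 1 to 4, triangles replicates 5 to 8, and the bar is the median). The Cic-S-KO samples of Mrc1, Cd68 and Ctsk all lie above the WT samples (share over all genes not counted). The highest Cic-S-KO point is replicate 6 in 8 of the 9 panels.

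Since WT samples served both comparisons, the values of Cic-L-KO against WT are set beside those of Cic-S-KO and are not independent of them. In Cic-L-KO lung, 0 of the 9 genes passed (edgeR), where 4.89% of all tested genes were called, 2.62% higher and 2.28% lower. At an unadjusted p under 0.05 there were 2, Mrc1 and Cd68, and DESeq2 gave 0 adjusted and 3 unadjusted. The log2 fold changes were 0.26 for Mrc1 (95% interval 0.084 to 0.43, adjusted p = 0.0889, edgeR), 0.37 for Cd68 (0.047 to 0.70, adjusted p = 0.202, edgeR) and 0.60 for Gpnmb (-0.61 to 1.81, adjusted p = 0.627, edgeR). For Ctsk the value was 0.17 (-0.20 to 0.54), for Atp6v0d2 -0.022 (-0.41 to 0.37) and for Trem2 0.26 (-0.31 to 0.83), so these intervals still allow moderate changes in either direction. Mrc1 passed when only WT and Cic-L-KO entered the fit (adjusted p = 0.0133, edgeR) and when Cic-S-KO replicate 6 was left out of the shared fit (adjusted p = 0.0277, edgeR).

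The knockouts were then compared with each other, which tests whether the 2 genotypes differ. Compared with Cic-L-KO, 6 of the 9 genes were higher in Cic-S-KO, where 12.2% of all tested genes were called, 7.31% higher and 4.85% lower. The log2 differences were 1.15 for Ctsk (SE 0.189, adjusted p = 0.000357, edgeR), 1.03 for Atp6v0d2 (SE 0.198, adjusted p = 0.00122), 1.42 for Trem2 (SE 0.281, adjusted p = 0.00149), 0.72 for Cd68 (SE 0.164, adjusted p = 0.00473) and 0.45 for Mrc1 (SE 0.0871, adjusted p = 0.00101). Gpnmb was the sixth, at 1.86 (SE 0.603, adjusted p = 0.0479, edgeR), and its call was fragile. It was kept when WT replicate 7, Cic-S-KO replicate 2, 4 or 8 or Cic-L-KO replicate 5 was left out, and it was lost when any 1 of the other 19 libraries was. Without Cic-S-KO replicate 6 the difference was 1.205 (adjusted p = 0.179, edgeR). Itgax differed by 0.59 (95% interval 0.20 to 0.97) with an adjusted p of 0.0541, and DESeq2 gave an adjusted p of 0.0342. Siglecf (0.36, adjusted p = 0.18, edgeR) and Ear2 (0.14, adjusted p = 0.642, edgeR) did not pass.

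**Figure D2:**
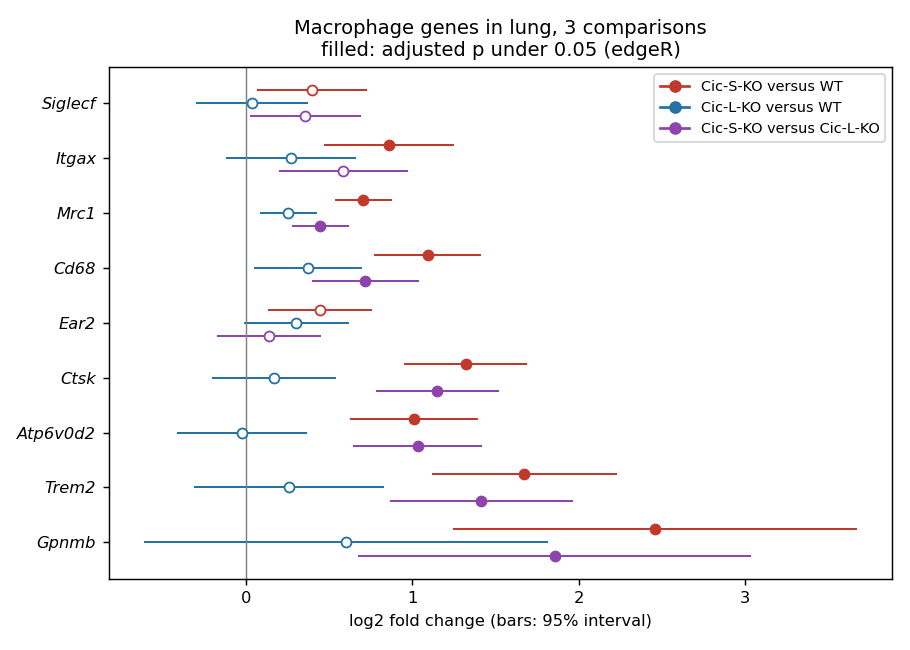
Log2 fold changes of the 9 macrophage genes in the 3 lung comparisons, with bars for the 95% interval and filled points for an adjusted p under 0.05. The Cic-S-KO points lie right of 0 in every row, from 0.40 for Siglecf to 2.46 for Gpnmb, whereas the interval of Cic-L-KO against WT includes 0 in every row except Mrc1 and Cd68.

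The size of the change differed between members within the same lungs, which was described by dividing each gene by Mrc1 in the same sample. Ctsk per Mrc1 was 0.427 ± 0.0409 for WT (SD, n = 8), 0.647 ± 0.158 for Cic-S-KO and 0.403 ± 0.123 for Cic-L-KO. In Cic-S-KO, 6 of 8 samples exceeded all WT ratios. Gpnmb per Mrc1 averaged 0.165 in WT (median 0.104) and 0.534 in Cic-S-KO (median 0.409, highest 1.44). Trem2 per Mrc1 averaged 0.0504 and 0.1004. Of the 8 Cic-S-KO samples, 3 exceeded all WT ratios for Gpnmb and 4 did for Trem2. Itgax per Mrc1 averaged 0.303 for WT and 0.337 for Cic-S-KO, with 2 Cic-S-KO samples above and 1 below all WT ratios. In the other direction, Siglecf per Mrc1 averaged 0.0678 in WT and 0.0566 in Cic-S-KO, and Ear2 per Mrc1 0.425 and 0.365. For each of these genes, 4 of 8 Cic-S-KO samples lay below all WT ratios and 1 lay above them all. The Cic-L-KO mean was also below that of WT for Siglecf (0.0580) but not for Ear2 (0.440). These ratios were not tested.

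The comparison was repeated within the replicates that held Y-linked RNA and within those that did not, 4 samples per genotype in each. In replicates 1 to 4, 6 members passed in Cic-S-KO against WT (Itgax, Mrc1, Cd68, Ctsk, Atp6v0d2 and Trem2, edgeR). In replicates 5 to 8, 2 passed (Mrc1 and Cd68, edgeR). Of all genes tested, 2.32% were called in the former and 2.85% in the latter. The log2 fold changes of the former and the latter set of replicates were close for some members. They were 0.65 and 0.74 for Mrc1, 0.81 and 0.89 for Itgax, 0.98 and 1.04 for Atp6v0d2, and 1.71 and 1.64 for Trem2. They lay further apart for the others: 0.54 and 0.24 for Siglecf, 0.61 and 0.25 for Ear2, 0.87 and 1.28 for Cd68, 1.13 and 1.49 for Ctsk, and 1.83 and 2.81 for Gpnmb. The standard errors were larger in replicates 5 to 8, for example 0.439 against 0.298 for Trem2. Those replicates include both the sample that was highest in most members and the one that was lowest in most. Whether the effect differed between these sets was not tested.

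Single libraries stood apart. Cic-S-KO replicate 6 was the highest Cic-S-KO sample for 8 of the 9 genes, with Siglecf, led by replicate 3, as the exception. Cic-S-KO replicate 8 was the lowest for 5. WT replicate 7 led its group for 6 genes and Cic-L-KO replicate 5 led its group for 6. Without Cic-S-KO replicate 6 the number of members past the threshold against WT was still 7, and they were the same 7 genes. The log2 fold changes were then 1.80 for Gpnmb, 1.43 for Trem2, 1.11 for Ctsk, 0.90 for Cd68, 0.81 for Atp6v0d2, 0.67 for Itgax and 0.61 for Mrc1, with adjusted p from 7.85e-06 to 0.0335 (edgeR). Without Cic-S-KO replicate 8 all 9 passed.

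Co-variation was measured within each genotype, over 8 samples, as the correlation of log2 CPM between pairs of genes. Of 108 relations (36 pairs in 3 genotypes), 32 passed after Benjamini-Hochberg adjustment of two-sided exact permutation p-values, with 10 from WT lungs, 13 from Cic-S-KO lungs and 9 from Cic-L-KO lungs. The median Pearson r over pairs was 0.72 for WT, 0.76 for Cic-S-KO and 0.63 for Cic-L-KO. How many pairs of other genes pass in the same samples was not counted, so these values describe the members only. Only Itgax with Atp6v0d2 and Atp6v0d2 with Gpnmb passed in all 3 genotypes. By rank neither pair passed in WT, with rho of 0.643 and 0.524 (exact permutation, adjusted p = 0.1998 and 0.291). Without the 2 samples farthest from the median of the first gene, their r in WT was 0.368 and 0.191.

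The pair with the highest Pearson r is given for each genotype. In WT, where Itgax with Gpnmb, Itgax with Cd68 and Cd68 with Ear2 stood close to it at 0.950, 0.950 and 0.948, Cd68 and Gpnmb had r = 0.951 (rho = 0.69, exact permutation p = 0.00231, adjusted p = 0.0226; permutation p of rho = 0.0694). In Cic-S-KO, Trem2 and Gpnmb had r = 0.970 (rho = 0.976, exact permutation p = 0.000347, adjusted p = 0.0125; permutation p of rho = 0.000397). In Cic-L-KO, Atp6v0d2 and Trem2 had r = 0.978 (rho = 0.976, exact permutation p = 0.000248, adjusted p = 0.0125; permutation p of rho = 0.000397). With the 2 samples farthest from the median of the first-named gene left out, these became 0.577, 0.902 and 0.992 over 6 samples. Extremes of the other gene of a pair stayed in. The first gene is the one that comes earlier in the opening list. The median r over pairs, each on the 6 samples it kept, was 0.41 for WT, 0.61 for Cic-S-KO and 0.45 for Cic-L-KO. No relation passed on 6 samples, where a call is hard to reach. The smallest p that 6 samples allow is 0.00139, and the smallest reached, 0.00278 at r = 0.992 (exact permutation), had an adjusted p of 0.3 over the 108 relations.

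Siglecf did not follow the others in every genotype. Its median r with the other 8 genes was 0.19 for WT, 0.64 for Cic-S-KO and -0.29 for Cic-L-KO. Its relation to Cd68 in Cic-L-KO was negative (r = -0.83, rho = -0.86, exact permutation p = 0.0117, adjusted p = 0.0466; permutation p of rho = 0.0107), and without the 2 farthest samples r was -0.61. In Cic-S-KO, its highest Pearson r was with Ear2 (r = 0.900, rho = 0.786, exact permutation p = 0.00342, adjusted p = 0.0284; permutation p of rho = 0.0279; 0.740 without the 2 farthest samples). By rho it was closer to Trem2 (0.881), Gpnmb (0.833) and Cd68 (0.810) than to Ear2. The 4 samples of a genotype with Y-linked RNA, and the 4 without, were too few for a correlation.

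**Figure D3:**
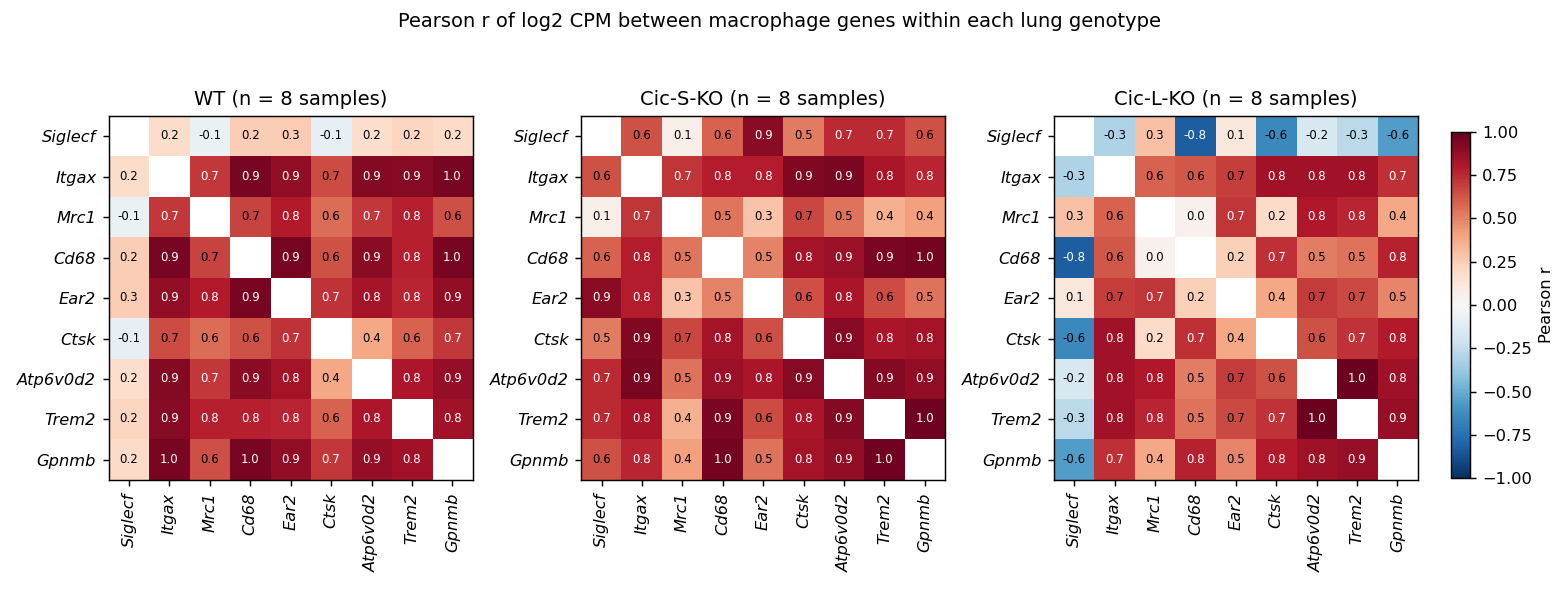
Pearson r of log2 CPM between each pair of macrophage genes within WT, Cic-S-KO and Cic-L-KO lung, 8 samples each, from -1 (blue) to 1 (red). Most pairs are positive, and the row of Siglecf is pale in WT and negative for most partners in Cic-L-KO, down to -0.83 with Cd68.

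Among 13089 genes ranked by their mean within-genotype correlation with a score over the 9 members (mean of scaled log2 CPM, 8 samples per genotype), the 8 closest that are not members were Arg1, Clec7a, Ccl6, Ctss, Plin2, Olr1, Ctsd and Sftpa1. Arg1, which encodes arginase 1, had a mean r of 0.928, the fungal glucan receptor gene Clec7a 0.912 and the chemokine gene Ccl6 0.911. Members contribute to the score, so their own ranks are not comparable. For description, Atp6v0d2 ranked 1, Itgax 2 and Siglecf 1506. All 8 named genes were also higher in Cic-S-KO than in WT, from a log2 fold change of 0.35 for the surfactant protein gene Sftpa1 (SE 0.0923, adjusted p = 0.0113, edgeR) to 2.54 for Arg1 (SE 0.409, adjusted p = 0.000344, edgeR). In Cic-L-KO their adjusted p ran from 0.16 for Ctss to 0.767 for Sftpa1 (edgeR).

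Further macrophage genes were counted from lists, which were also chosen with earlier results of these data known. Of 19 tested alveolar macrophage genes 15 were higher in Cic-S-KO than in WT, with a median log2 fold change of 0.56. In Cic-L-KO, 3 were higher. Those 3, Car4, Krt19 and Slc39a2 (0.18, 0.38 and 1.12), also passed in Cic-S-KO (0.20, 0.32 and 0.32). Pparg (0.25), Ear1 (0.41), Krt79 (0.62) and Cidec (-0.045) did not pass in Cic-S-KO (adjusted p = 0.139, 0.0691, 0.0774 and 0.909, edgeR). Which cells of whole lung these reads came from was not measured. F7, coagulation factor VII, rose by 1.31 (SE 0.181, adjusted p = 4.81e-05, edgeR), the surface protein gene Plet1 by 0.68 (SE 0.109, adjusted p = 0.000181) and the tetraspanin gene Cd9 by 0.41 (SE 0.0688, adjusted p = 0.000284). Of 17 lipid-handling genes 11 were higher in Cic-S-KO and 1, the fatty acid transporter gene Cd36, was lower. Fabp5 and Lgals3 are on both lists and were higher, so each counts in the 15 and in the 11. In Cic-L-KO, 2 were higher: Npc2 by 0.26 and Mmp12 by 1.47 (adjusted p = 0.0333 and 0.0185, edgeR). Mmp12 rose by 1.55 in Cic-S-KO and did not pass between the knockouts (adjusted p = 0.923, edgeR). In Cic-S-KO, Tyrobp, the signalling adaptor of Trem2, rose by 0.87 (SE 0.135, adjusted p = 0.000164, edgeR). The scavenger receptor gene Msr1 rose by 1.16 and the lipid carrier gene Apoe by 0.999 (adjusted p = 0.000317 and 0.000362, edgeR). Without Cic-S-KO replicate 6 these lists had 13 and 11 genes past the threshold. Within replicates 1 to 4 they had 8 and 4, and within replicates 5 to 8 they had 5 and 2, with medians of 0.50 and 0.58 for the alveolar macrophage genes.

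Of 18 osteoclast-type lysosomal genes 7 were higher in Cic-S-KO, with a median log2 fold change of 0.13. Acp5, tartrate-resistant acid phosphatase, rose by 1.02 (SE 0.164, adjusted p = 0.00017, edgeR), while the protease gene Ctsb and the proton pump gene Atp6v1b2 rose by 0.34 and 0.31. The fusion genes Dcstamp and Ocstamp, Oscar and Calcr were below the filter, with WT means of 0.0408, 0.0867, 0.197 and 0.0916 CPM and Cic-S-KO means of 0.0299, 0.284, 0.136 and 0.050 CPM. Within replicates 1 to 4 and within replicates 5 to 8, 2 genes of the list passed in each. Of 12 growth factor and receptor genes 7 were higher. Within replicates 1 to 4 alone 0 passed (edgeR, 7 at an unadjusted p under 0.05), and within replicates 5 to 8, 4 passed. Csf2rb, the shared chain of the GM-CSF receptor, rose by 1.02, the macrophage transcription factor gene Spi1 by 0.82 and the CSF1 receptor gene Csf1r by 0.52 (adjusted p = 0.00208, 0.000643 and 0.000697, edgeR). Csf1r also passed in Cic-L-KO at 0.33 (adjusted p = 0.0418, edgeR).

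Interstitial macrophage and monocyte genes moved as well. Of 15 tested, 11 were higher in Cic-S-KO and 1 was lower, with a median log2 fold change of 0.84. The complement genes C1qa and C1qc rose by 1.095 and 0.991 and Adgre1, which encodes the macrophage antigen F4/80, by 1.00 (adjusted p = 1.88e-05, 1.96e-05 and 4.37e-05, edgeR). C1qa and C1qc were also higher in Cic-L-KO, by 0.62 and 0.61 (adjusted p = 0.00677 and 0.00447, edgeR). Lyve1, a hyaluronan receptor that lymphatic endothelium also carries, was lower in Cic-S-KO at -0.47 (adjusted p = 0.0397, edgeR).

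**Figure D4:**
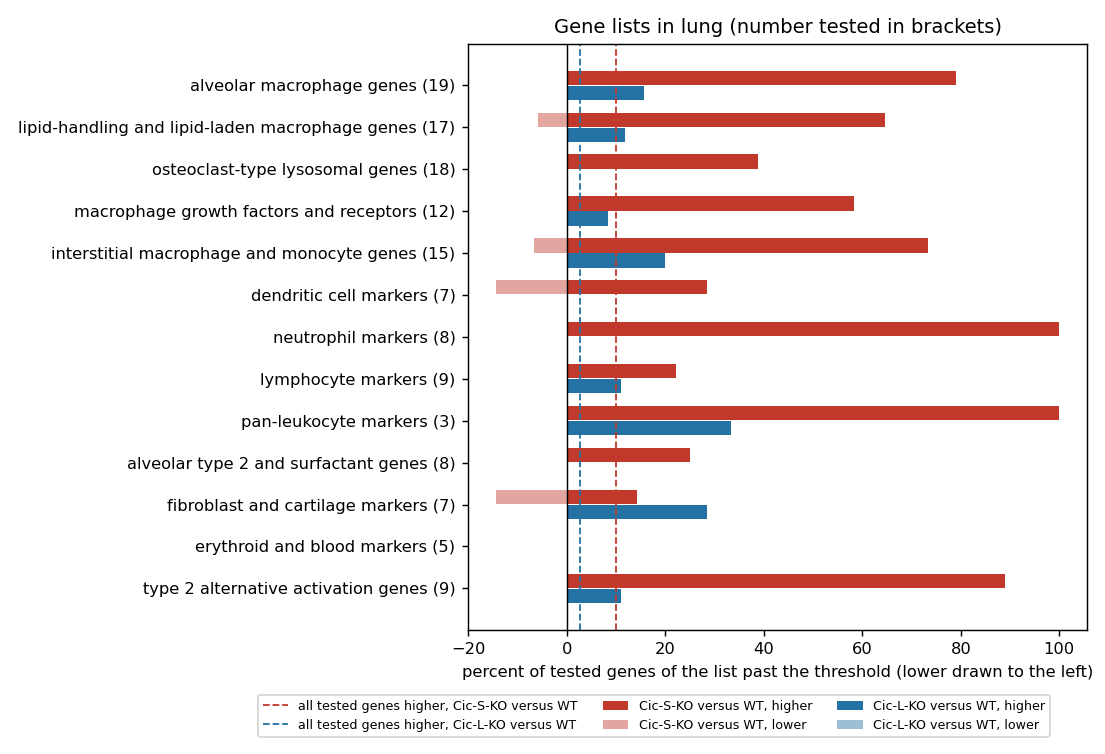
Percent of the tested genes of each list that passed the threshold in Cic-S-KO (red) and Cic-L-KO lung (blue) against WT, higher to the right and lower to the left, with dashed lines for the percent of all tested genes called higher (9.99 and 2.62). Macrophage, neutrophil, pan-leukocyte and type 2 activation lists reach furthest in Cic-S-KO.

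Markers of other cells moved with the macrophage genes in Cic-S-KO lung, and their part in the results was not tested. All 8 neutrophil markers were higher, with a median log2 fold change of 1.53, led by Mmp8 at 1.60 and Ltf at 1.57 (adjusted p = 0.00106 and 0.00707, edgeR). Within replicates 1 to 4 alone, 0 of the 8 passed (edgeR, 4 at an unadjusted p under 0.05) with a median of 1.21, and within replicates 5 to 8, 2 passed with a median of 1.78. Their summed level ran from 34.7 to 170.7 CPM in WT, from 91.9 to 337.7 CPM in Cic-S-KO and from 40.01 to 188.8 CPM in Cic-L-KO. The groups overlapped, and 6 of 8 Cic-S-KO sums lay above all WT sums. All 3 pan-leukocyte markers were higher, and the summed level of Laptm5, Coro1a and Cd53 ran from 140.2 to 199.04 CPM in WT, from 199.8 to 362.1 CPM in Cic-S-KO and from 166.6 to 237.4 CPM in Cic-L-KO. Cic-S-KO replicate 6, highest in most members, was also highest in the pan-leukocyte sum, whereas the neutrophil sum was highest in replicate 5.

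Of 9 lymphocyte markers 2 were higher in Cic-S-KO, Gzma and Cd79a, with summed levels from 24.1 to 46.9 CPM in WT and from 43.3 to 63.8 CPM in Cic-S-KO. Within replicates 1 to 4, 1 lymphocyte marker passed, and within replicates 5 to 8, 0 (edgeR, 2 at an unadjusted p under 0.05). Of 7 dendritic cell markers 2 were higher (Xcr1 and Itgae) and 1 was lower (Cd209a), but 0 passed within replicates 1 to 4 or 5 to 8 (edgeR, 5 and 2 at an unadjusted p under 0.05), with summed levels from 69.7 to 86.4 CPM in WT and from 64.3 to 81.5 CPM in Cic-S-KO. Eosinophils also carry SIGLEC-F. Their 6 markers were low. The sums ran from 0.517 to 1.01 CPM in WT and from 1.14 to 1.501 CPM in Cic-S-KO. In Cic-L-KO they ran from 0.284 to 1.96 CPM. All 8 Cic-S-KO sums lay above all WT sums, and how often sums of other genes separate in this way was not counted. The granule protein genes Epx and Prg2 averaged 0.0169 and 0.0421 CPM in WT and 0.0181 and 0.125 CPM in Cic-S-KO. Of the 6 markers, 1, Il5ra, passed the filter on low counts. It did not pass the threshold in Cic-S-KO against WT (log2 fold change 0.48), so 0 eosinophil markers were called. Of the 8 type 2 pneumocyte and surfactant genes 2 were higher, Sftpd and Sftpa1, with summed levels from 17193 to 21416 CPM in WT and from 18826 to 24646 CPM in Cic-S-KO. Erythroid sums overlapped widely, from 6123 to 16204 CPM in WT and from 6786 to 23239 CPM in Cic-S-KO. Of 7 fibroblast and cartilage genes 1 was higher (Col2a1) and 1 lower (Col1a2).

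Of 9 tested type 2 activation genes 8 were higher in Cic-S-KO. The full list holds genes that mark responses to interleukin 4 and interleukin 13, as well as the cytokine genes Il4, Il13 and Il33. Retnla rose by 3.52, Arg1 by 2.54 and Chil4 by 6.77 (adjusted p = 0.000105, 0.000344 and 0.000344, edgeR). Chil4 has a close relative in Chil3, and reads shared between them were not measured, so its value is uncertain. Of these genes 6 passed without Cic-S-KO replicate 6, 1 within replicates 1 to 4 and 4 within replicates 5 to 8. The summed level ran from 79.8 to 255.4 CPM in WT and from 336.2 to 2912 CPM in Cic-S-KO. All 8 Cic-S-KO samples lay above all WT samples, and how often sums of other genes separate in this way was not counted. The sum was highest in Cic-S-KO replicate 2, which was the lowest Cic-S-KO sample for 3 macrophage genes.

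Levels in the adult brain regions place the lung values, though tissue, age and batch label cannot be told apart there and no test was made. Atp6v0d2, Ear2, Itgax and Siglecf were near 0 in brain. Their means were at most 0.0867, 0.0865, 0.370 and 0.474 CPM in any brain group. Trem2, a microglial receptor in brain, averaged 9.99 ± 1.30 CPM in WT cortex (SD, n = 8) and 3.48 ± 0.568 CPM in WT cerebellum, both above its WT lung mean of 2.697 ± 1.26 CPM. Cd68 averaged 6.77 CPM, Mrc1 5.43 CPM, Ctsk 4.62 CPM and Gpnmb 3.48 CPM in WT cortex, each below its WT lung mean. In Cic-S-KO cortex, Trem2 averaged 11.3 ± 2.04 CPM (n = 7) and Gpnmb 3.32 ± 0.976 CPM, and the samples of both genes overlapped with WT cortex. In Cic-S-KO cerebellum they averaged 4.68 ± 0.795 and 3.55 ± 0.514 CPM. Gpnmb averaged 5.26 ± 0.806 CPM in Cic-L-KO cortex and 5.81 ± 0.523 CPM in Cic-L-KO cerebellum, against 4.04 ± 0.891 CPM in WT cerebellum. Trem2 averaged 9.85 and 3.89 CPM in Cic-L-KO cortex and cerebellum. These samples also overlapped with WT of the same region.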

How the data were processed

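The authors deposited 1 table of raw gene counts, as whole numbers with differing column totals. The submitters' processing notes name STAR 2.7 and GRCm38.p6. The counting program, annotation and strand setting are not given in the sources used here. Identifiers were matched to GENCODE M21 (50725 of 50789 ignoring version). The 24 lung samples were fitted together in edgeR 4.0.16 (R 4.3.3: filterByExpr, TMM, robust quasi-likelihood fit, Benjamini-Hochberg over 16695 genes); SE was derived from F. On counts simulated for Cic-S-KO against WT (16548 genes, 200 of them shifted by 1 on the log2 scale), edgeR called 173 of the 200. Of 84 replicate pairs, 0 were identical. Correlations used log2 CPM (prior count 2) and exact permutations of pairings. The genes and lists were chosen with earlier results of these data known. Named genes are the members, Cic, the 8 non-members most like the member score, and up to 3 genes of smallest p per list. Others were chosen after their values were seen: Cd36, Lyve1, Il5ra, Sftpc, Snap25, the read-sharing relatives and the 4 osteoclast genes below the filter. So were Car4, Krt19, Slc39a2, Pparg, Krt79, Cidec, Npc2 and Mmp12. Fabp5 and Lgals3 are named because the alveolar macrophage and lipid-handling lists share them. Alternatives were DESeq2 1.42.0, RLE, other count filters, a non-robust fit, a size threshold, a Y-linked covariate, a replicate block, only the compared genotypes and each library left out.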

Additional observations from a re-analysis of the deposited data

Results flagged for a closer look

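Samples far from the rest of their group were looked for in the 27 groups of lung values (9 genes in 3 genotypes) by the gap of the highest or lowest sample to its nearest neighbour, relative to the range. In 10 groups a sample stood apart, all of them at the high end. For independent groups of normally distributed values chance would give 1.35 (about 1 in 20). CPM was used here without a log transform and the groups share libraries, so 1.35 is only a rough guide.

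Cic-S-KO replicate 6 accounted for 6 of the 10. It stood at 54.2 CPM for Itgax (next sample 31.3), 49.6 CPM for Cd68 (29.3), 108.8 CPM for Ctsk (62.6), 55.5 CPM for Atp6v0d2 (32.5), 18.1 CPM for Trem2 (10.7) and 175.8 CPM for Gpnmb (65.5). The genes are correlated, so these are not 6 independent signals. The same 7 genes passed against WT without this sample.

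WT replicate 7 stood apart for Trem2 at 5.41 CPM (next 3.39) and for Gpnmb at 27.2 CPM (14.4). Cic-L-KO replicate 5 stood apart for Ctsk at 43.9 CPM (27.2) and for Gpnmb at 41.3 CPM (16.9). Without WT replicate 7 the Gpnmb log2 fold change in Cic-S-KO was 2.96 (adjusted p = 0.0028, edgeR), and without Cic-L-KO replicate 5 that of Cic-L-KO fell to 0.11 (adjusted p = 0.949, edgeR).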

How the results depend on the processing

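Over 34 alternatives for each of the 9 genes and 3 comparisons (918 values), 852 kept direction and side of the threshold, 37 lost the call, 18 gained it and 11 changed sign, none of these 11 in a called value. In Cic-S-KO against WT the number of genes past the threshold was 7 to 9 with single libraries left out and 8 with DESeq2. It was 2 in replicates 5 to 8 alone, a split added after seeing the data that leaves 4 samples per genotype. In Cic-L-KO against WT it was 0 to 1 with single libraries left out and 1 with only the compared genotypes fitted. In Cic-S-KO against Cic-L-KO it was 5 to 7 with single libraries left out, 3 in replicates 1 to 4 and 0 in replicates 5 to 8 (edgeR), where 5 had an unadjusted p under 0.05. Of the 32 correlations past the threshold, the count was 10 with Spearman's rho and 0 with the 2 farthest samples left out. A call is hard to reach on 6 samples (r = 0.992 had an adjusted p of 0.3, exact permutation). The part of the smaller sample number and that of the samples left out cannot be told apart. The log2 fold changes that changed sign were Siglecf in Cic-L-KO (-0.022 and -0.059 without WT replicate 1 or Cic-L-KO replicate 1, -0.040 in replicates 5 to 8; -0.059 to 0.093 over all left-out libraries), Atp6v0d2 in Cic-L-KO (0.035, 0.061, 0.013, 0.037 and 0.031 without WT replicate 3 or 7 or Cic-L-KO replicate 1, 2 or 4, and 0.12 in replicates 5 to 8; -0.090 to 0.061 over all left-out libraries), Gpnmb in Cic-L-KO (-0.041 in replicates 1 to 4) and Ear2 between the knockouts (-0.021 in replicates 5 to 8). The cause was not tested.

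Counts over all genes moved most with a minimum absolute log2 fold change of 0.5 (959 in Cic-S-KO, 200 in Cic-L-KO, 839 between them) and within replicates 1 to 4 (387, 62 and 389) and 5 to 8 (481, 181 and 405). Without WT replicate 5 or 6 the Cic-L-KO count was 522 or 517. The replicate block, which treats equal replicate numbers as a pair, gave 8, 0 and 5 of the 9 genes in the 3 comparisons and 1285 genes in Cic-L-KO. Under the block Ear2 passed in Cic-S-KO against WT (adjusted p = 0.0286, edgeR) and Gpnmb did not between the knockouts (0.0758). Deviations of same-numbered samples correlated at 0.14, 0.16 and 0.14 on average, against -0.020, -0.023 and -0.019 for other numbers, and 4, 6 and 2 of 8 samples correlated best with their own number. Single pairs went down to -0.053 and the labels give the numbers no meaning, so this is a hint of pairing from the data and not from the design. Trem2 and Siglecf rest on few reads, from 37 and 54 raw counts per library.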
